A study of Mus musculus with 4 samples.

Results

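The endothelial genes described here are 40 genes taken by symbol from a list of vascular markers, out of 18194 genes measured on the arrays. They were viewed as 26 pan-endothelial genes, 9 genes of capillary or arterial endothelium and 5 lymphatic genes. For each gene the value used was that of the probe set (the group of short oligonucleotides that reports 1 transcript on the array) with the highest mean log2 signal over all 4 arrays. A signal was taken as above background where it exceeded the median of its array. On that measure 37 of the 40 genes were above background on every array, and Gja5, Mmrn1 and Prox1 were at or under it on every array.

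Fat tissue is threaded with capillaries, whose endothelial cells take up circulating lipid and pass it to fat cells. Endothelial cells share a core of junction proteins, receptors and transcription factors, and arterial, capillary and lymphatic vessels add genes of their own. Arterial identity is set by Notch signalling, and lymphatic identity by the transcription factor Prox1 and the receptor Flt4. Growth and survival of vessels depend on the VEGF receptors Kdr, Flt1 and Flt4 and on the angiopoietin receptor Tek with its relative Tie1.

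Total RNA came from epididymal fat pads of C57Bl/6J mice that entered the study at 9 weeks of age and ate a high-fat diet, with 60% of energy from fat, for 21 weeks. Both groups therefore shared the high-fat feeding. The high-calcium diet contained 1.8% calcium and whey protein isolate, so calcium and protein source cannot be told apart, and the standard diet contained 0.4% calcium. Each diet was fed to 10 mice, of which 2 were stated to have been profiled. By their labels 2 arrays belonged to the high-calcium whey diet and 1 array to the standard diet, while the title of the remaining array repeats the wording of the study title in place of a diet. A label of high-calcium replicate 2 holds that wording too, while the stated 2 mice per diet would leave the array as a control. It was put in no group and is called here the array of unassigned diet.

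All values are log2 of the deposited linear signal. Differences from the standard array rest on that single array. The p-values use the spread between 2 arrays of the high-calcium group, moderated by limma toward a spread pooled over all genes. They hold no spread among standard arrays. The 4 arrays each carried 45101 probe sets, with between 11759 and 12030 of the 18194 genes above background. The median signal was 0.0963 on high-calcium replicate 1 against 0.0585 to 0.0628 on the other arrays, a gap that lay mostly in dim probe sets. Over the 10468 genes above background on every array, replicate 1 had a median log2 difference of 0.064 from the standard array and replicate 2 of 0.0052. Fat-cell genes marked the tissue as labelled: all 10 measured genes of a fat-cell list were above background on every array, and Adipoq, adiponectin, ranged from 4.88 to 5.15.

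Signal of most endothelial genes was below that of the standard array on each of the high-calcium arrays. Of the 40 genes, 29 were lower on both arrays, 3 were higher on both and 8 lay on opposite sides. Over all genes 23.9% were lower on both arrays and 38.6% higher on both, and over genes above background on every array these shares were 27.1% and 35.4%. The 40 genes were chosen with earlier results of these data known, so the counts describe the list and do not test it. The median log2 difference of the 40 genes was -0.23 on replicate 1 and -0.42 on replicate 2, against 0.19 and 0.013 for all genes. By a mark of 0.32 log2 units on both arrays, 10 genes were lower and 1 was higher, the latter being Prox1, which is under background. By comparison 7.84% of all genes and 4.05% of genes above background were lower by that mark. No gene of the list passed the test across all genes: limma's adjusted p was 1.0 for each of the 40, and unadjusted p-values ran from 0.0943 to 0.951. The background of that test was 0% of 18194 genes called, with 898 genes at an unadjusted p under 0.05. limma with a variance trend and robust estimation called 0.0330% of genes, none of them in the list, in which 4 genes had an unadjusted p under 0.05. By that same fit 521 of all 18194 genes had an unadjusted p under 0.05. Among the 10468 genes above background on every array 253 did.

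**Figure D1:**
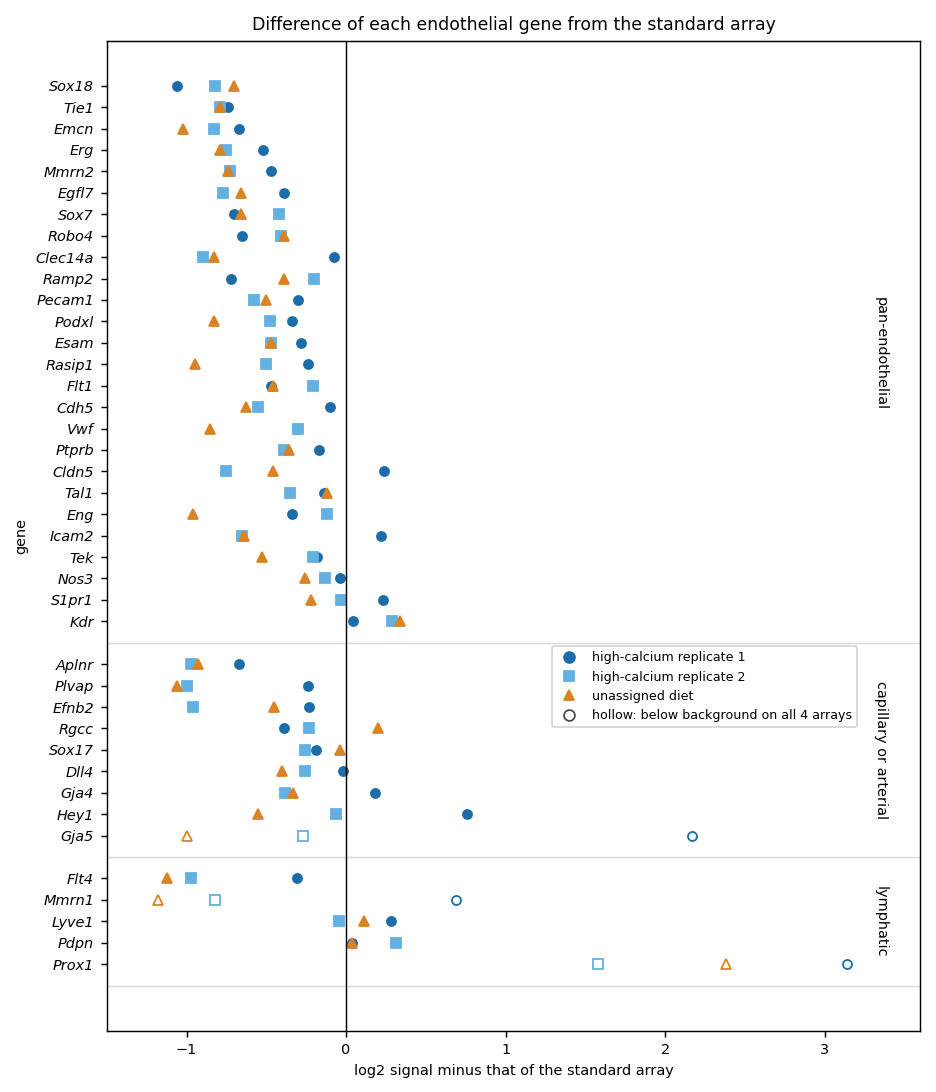
Log2 signal of each endothelial gene minus that of the standard array (horizontal axis), with 1 row per gene in each vessel group; circles and squares are the 2 high-calcium arrays and triangles the array of unassigned diet. Nearly all pan-endothelial points lie left of 0, Kdr lies right of it on all 3 arrays, and the hollow points of Gja5, Mmrn1 and Prox1 are below background.

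The standard array was the highest of the 4 arrays for 28 of the 40 genes, against 18.1% of all genes and 19.6% of genes above background. It was the highest for 22 of 26 pan-endothelial genes, 5 of 9 capillary or arterial genes and 1 of 5 lymphatic genes. The array of unassigned diet was lower than the standard array for 35 of the 40 genes, against 53.2% of all genes and 53.2% of those above background. The median log2 difference there was -0.54, against -0.028 for all genes. That array was the lowest of the 4 for 18 of the 40 genes, against 30.0% of all genes and 28.7% of those above background. On the deposited scale the median of the 40 genes was thus further from the standard array there than on either high-calcium array. That order depended on the scaling. With arrays centred on their medians, the pan-endothelial median was -0.93 on replicate 1, -0.49 on replicate 2 and -0.54 on the array of unassigned diet. After quantile normalization the same medians were -0.46, -0.44 and -0.56. In bulk tissue a smaller number of endothelial cells and less RNA per endothelial cell cannot be told apart.

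Linear signal summed over the 26 pan-endothelial genes was 13.5 on high-calcium replicate 1 and 11.9 on replicate 2. The sum was 16.6 on the standard array and 11.3 on the array of unassigned diet. The standard array was above all the others. Their median log2 difference from the standard array was -0.30 on replicate 1 and -0.48 on replicate 2, and 22 of the 26 were lower on both. The direction was the same after quantile normalization, with medians of -0.46 and -0.44. Centring arrays on their medians moved the median of all genes from 0.079 to -0.24, and each endothelial gene by the same amount.

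**Figure D2:**
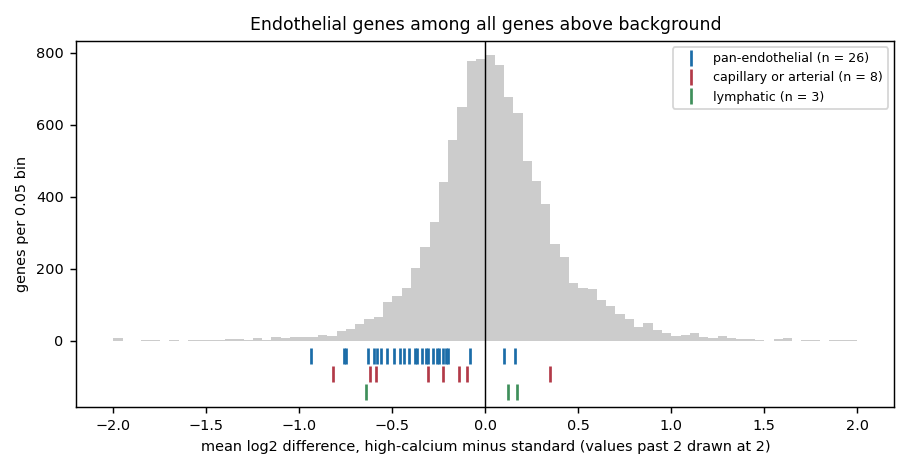
Histogram of the mean log2 difference between the high-calcium arrays and the standard array for 10468 genes above background on every array (grey), with a tick for each of the 37 endothelial genes among them, by vessel group. Of these 37 genes, 19 are among the lowest 10% of genes, whose limit rounds to -0.32 (Cdh5, which also rounds to -0.32, lies just above it), while the main peak of the histogram sits near 0.

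Several transcription factors of the endothelium had their highest signal on the standard array. Sox18, an SRY-related factor needed for vascular development, had log2 signals of -1.14 and -0.90 on high-calcium replicates 1 and 2, with -0.088 on the standard array and -0.79 on the array of unassigned diet. Sox18 was thus 1.91-fold lower on the high-calcium arrays (group mean -1.02 ± 0.17, SD, n = 2; difference -0.94, SE 0.35, 95% interval -2.22 to 0.35), and the standard value lay above the 3 others. Sox7, a close relative, had -1.80, -1.53, -1.11 and -1.77 on the same arrays in turn, 1.47-fold lower on the high-calcium arrays. Sox17, the third factor of this subfamily and a marker of arteries, differed less, with -0.68, -0.76, -0.49 and -0.53. For Sox17 the array of unassigned diet differed from the standard array by -0.038, for Sox7 by -0.66 and for Sox18 by -0.70. Erg, an ETS factor that maintains endothelial identity, had -1.86, -2.09, -1.34 and -2.13, so that the standard array was again the highest. Tal1, which also serves blood cell formation, differed by -0.14 on replicate 1 and -0.35 on replicate 2.

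Receptors did not all lie on the same side. Tie1, an orphan receptor tyrosine kinase that modulates Tek, had log2 signals of -3.22 and -3.27 on the high-calcium arrays, -2.48 on the standard array and -3.27 on the array of unassigned diet. That is 1.70-fold lower on the high-calcium arrays (difference -0.76, SE 0.32), with the 3 lower arrays close to one another. Tie1 was near background on those arrays. It was 0.16 log2 units above it on replicate 1, 0.72 on replicate 2 and 0.83 on the array of unassigned diet, against 1.52 on the standard array. Tek itself, the angiopoietin receptor, was lower by less, at -0.18 on replicate 1 and -0.21 on replicate 2, with the lowest value of -1.67 on the array of unassigned diet. Among VEGF receptors, Flt1 differed by -0.47 and -0.21. Kdr, the main signalling receptor for VEGF-A, had -2.62, -2.37, -2.66 and -2.32 in the same array order, so that the standard array was the lowest of the 4. Its difference of 0.16 (SE 0.35, 95% interval -1.12 to 1.45) turned to -0.15 when arrays were centred on their medians. Eng, endoglin, a co-receptor for TGF-beta family ligands, differed by -0.34 and -0.12, while Robo4, a guidance receptor that stabilises vessels, had log2 signals of -2.56, -2.33, -1.91 and -2.30 in the same array order, highest on the standard array. Ramp2, which pairs with the adrenomedullin receptor, differed by -0.72 and -0.20, and S1pr1, a sphingosine-1-phosphate receptor, by 0.23 and -0.035.

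**Figure D3:**
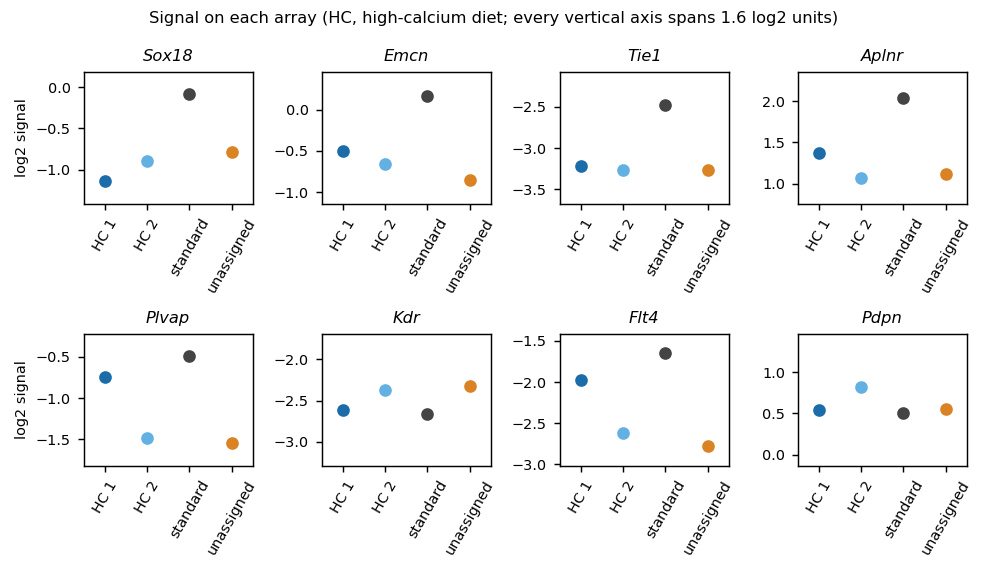
Log2 signal (vertical axis, spanning 1.6 log2 units in every panel) of 8 endothelial genes on the 4 arrays, 1 point per array, where HC is the high-calcium diet. The standard array is the highest for Sox18, Emcn, Tie1, Aplnr, Plvap and Flt4 and the lowest for Kdr and Pdpn.

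Genes of several surface and matrix proteins were highest on the standard array as well. Emcn, endomucin, a sialomucin of capillary and venous endothelium, had log2 signals of -0.50 and -0.66 on the high-calcium arrays, 0.17 on the standard array and -0.85 on the array of unassigned diet. It was 1.68-fold lower on the high-calcium arrays (difference -0.75, SE 0.33). Mmrn2, an extracellular matrix glycoprotein of vessels, had 0.013, -0.24, 0.49 and -0.26, and Egfl7, a secreted regulator of vessel tubes, had -0.76, -1.14, -0.37 and -1.03. Both were highest on the standard array. The junction genes were mixed. Cdh5, VE-cadherin, the adherens junction cadherin of endothelium, differed by -0.10 on replicate 1 and -0.55 on replicate 2, and Pecam1, the adhesion molecule CD31, by -0.30 and -0.58. Esam, a tight junction adhesion molecule, differed by -0.28 and -0.47, while Cldn5, the endothelial claudin, and Icam2, an adhesion molecule for leukocytes, lay on opposite sides on the 2 arrays. Cldn5 differed by 0.24 on replicate 1 and -0.75 on replicate 2, and Icam2 by 0.22 and -0.65.

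The remaining pan-endothelial genes were below the standard array on both high-calcium arrays. Vwf, von Willebrand factor, differed by -0.31 and -0.30, and Podxl, podocalyxin, a sialomucin shared with mesothelium, by -0.34 and -0.48. Ptprb, the endothelial phosphatase that restrains Tek, differed by -0.17 and -0.39, and Rasip1, a Ras-interacting protein needed for vessel lumens, by -0.24 and -0.50. Nos3, endothelial nitric oxide synthase, differed by -0.040 and -0.13. Clec14a, a C-type lectin of endothelium, was apart from the standard array only on replicate 2, at -0.90 against -0.077 on replicate 1. On the array of unassigned diet each of these 6 genes was lower than on the standard array too, from -0.26 for Nos3 to -0.95 for Rasip1.

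Promoter windows are shown for the VEGF and angiopoietin receptor families. By the probe sets and scaling used, Tie1, Tek, Flt1 and Flt4 were lower on both high-calcium arrays and Kdr was higher on both. On replicate 1 the difference of Kdr was only 0.042, and it turned to -0.30 after quantile normalization. The other Flt1 probe sets above background on every array were higher on replicate 1, by 0.75 and 0.44. The windows were taken from RefSeq promoter sequences of the GRCm38.p6 assembly, in which 22 of the 40 genes had an entry, and cover the 250 bases before the start of the gene. Capitals mark matches to an ETS motif, searched as AGGAAG or CGGAAG on both strands. Tie1 lies at chr4:118489850-118490099 on the minus strand, Tek at chr4:94739039-94739288 on the plus strand, Flt1 at chr5:147726012-147726261 on the minus strand, Flt4 at chr11:49609429-49609678 on the plus strand and Kdr at chr5:75978456-75978705 on the minus strand.
Tie1: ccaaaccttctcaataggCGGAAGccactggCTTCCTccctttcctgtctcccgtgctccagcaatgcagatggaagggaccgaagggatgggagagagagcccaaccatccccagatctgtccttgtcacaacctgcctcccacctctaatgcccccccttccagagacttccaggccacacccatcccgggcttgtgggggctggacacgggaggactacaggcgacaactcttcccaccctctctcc
Tek: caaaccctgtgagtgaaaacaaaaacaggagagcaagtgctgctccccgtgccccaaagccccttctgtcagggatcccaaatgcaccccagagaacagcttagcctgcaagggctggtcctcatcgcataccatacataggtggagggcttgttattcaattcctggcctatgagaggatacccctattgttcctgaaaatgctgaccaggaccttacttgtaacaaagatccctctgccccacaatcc
Flt1: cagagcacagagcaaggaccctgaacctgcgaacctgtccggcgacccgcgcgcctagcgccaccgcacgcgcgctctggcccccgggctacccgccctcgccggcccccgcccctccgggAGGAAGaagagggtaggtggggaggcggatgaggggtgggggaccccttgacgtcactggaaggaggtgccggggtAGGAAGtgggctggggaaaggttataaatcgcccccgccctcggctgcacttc
Flt4: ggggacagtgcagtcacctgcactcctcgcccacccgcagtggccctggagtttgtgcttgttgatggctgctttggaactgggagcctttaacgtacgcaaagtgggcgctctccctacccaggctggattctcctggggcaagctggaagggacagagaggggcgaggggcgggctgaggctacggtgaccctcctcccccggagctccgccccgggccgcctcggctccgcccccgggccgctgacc
Kdr: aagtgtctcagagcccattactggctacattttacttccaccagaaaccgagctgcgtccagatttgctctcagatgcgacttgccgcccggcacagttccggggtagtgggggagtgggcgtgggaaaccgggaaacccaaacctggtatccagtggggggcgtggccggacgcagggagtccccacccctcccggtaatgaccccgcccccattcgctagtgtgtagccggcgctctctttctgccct

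The windows of Tie1 and Flt1 held 2 matches each, and those of Tek, Flt4 and Kdr held 0. Some genes had several windows. At least 1 window held a match in 9 of the 15 genes lower on both high-calcium arrays and in 1 of the other 7, Gja5. Those 7 include Gja5, Mmrn1 and Prox1, which were under background on every array and have no measured direction. The share of all genes with a match in at least 1 window was not counted, so no link to direction can be read from this split. Of 28 windows of the listed genes 11 held a match (39.3%), against 39.2% of all 32851 promoter windows of this length. A SOX motif, ACAAAG or ACAATG on either strand, was in 28.6% of the endothelial windows and 25.2% of all windows. A GATA motif, AGATAA or TGATAA on either strand, was in 14.3% and 16.6%. The 3 motifs shared 0 of their 6-letter words on either strand, and in the 28 windows 0 matches of different motifs overlapped. A match is a description of the sequence, and binding was not measured.

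By the probe sets used, the 3 capillary genes were below the standard array on both high-calcium arrays, while arterial genes were mixed. Aplnr, the apelin receptor of capillary and venous endothelium, had log2 signals of 1.37 and 1.07 on the high-calcium arrays, 2.04 on the standard array and 1.11 on the array of unassigned diet. It was 1.77-fold lower on the high-calcium arrays (group mean 1.22 ± 0.21, SD, n = 2; difference -0.82, SE 0.36, 95% interval -2.16 to 0.51). Aplnr had the smallest unadjusted p of the 40 genes with trend and robust estimation, 8.51e-04 by limma, with an adjusted p of 0.553. Plvap, the protein of capillary fenestral diaphragms, had -0.74, -1.49, -0.49 and -1.55 in the same array order. Replicate 1 was near the standard array for Plvap, while replicate 2 and the array of unassigned diet differed from it by -1.0 and -1.06. Rgcc, a regulator of the cell cycle that is abundant in capillary endothelium of fat, had 2.91, 3.07, 3.29 and 3.49, so that the array of unassigned diet was the highest. A second probe set of Rgcc, above background on every array, lay on the other side, at 0.15 on replicate 1 and 0.25 on replicate 2.

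Among arterial genes Efnb2, the ephrin ligand that marks arteries, had log2 signals of -1.53, -2.25, -1.30 and -1.75 on replicates 1 and 2, the standard array and the array of unassigned diet. Its difference was -0.23 on replicate 1 and -0.96 on replicate 2, so that the 2 high-calcium arrays lay far apart. Dll4, the Notch ligand of arterial and tip cells, differed by -0.020 and -0.26, and was only 0.47 log2 units above background on replicate 1. A second probe set of Dll4, above background on every array, lay on the other side, at 0.83 on replicate 1 and 0.79 on replicate 2. Gja4, connexin 37, differed by 0.18 and -0.38. Hey1, a transcriptional target of Notch, was higher on replicate 1 by 0.76 and differed by -0.064 on replicate 2. Gja5, connexin 40, had -5.68, -8.12, -7.85 and -8.85, all under background, and has no measured difference. Taking the 9 capillary or arterial genes as a group, by the probe sets used, 6 lay below the standard array on both high-calcium arrays and 0 above it on both. Their median log2 difference was -0.23.

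The lymphatic genes did not lie on one side. Flt4, the receptor for VEGF-C, had log2 signals of -1.97 and -2.62 on the high-calcium arrays, -1.65 on the standard array and -2.78 on the array of unassigned diet, so that it was lower on all 3 arrays than on the standard one. Lyve1, a hyaluronan receptor shared by lymphatic endothelium and resident macrophages, had -0.80, -1.13, -1.08 and -0.97, with the standard value inside the range of the others. Pdpn, podoplanin, which fibroblasts and mesothelium also make, had 0.54, 0.82, 0.51 and 0.55, and 3 of the 4 arrays were within 0.039 of one another. Prox1, the master regulator of lymphatic identity, had -4.84, -6.40, -7.98 and -5.60, and Mmrn1, multimerin 1, had -4.24, -5.74, -4.93 and -6.11. Both were under background on every array, so their differences have no order here. The median log2 difference of the 5 genes was 0.12, and it turned to -0.20 with arrays centred on their medians, to -0.011 with the probe set chosen over the 3 labelled arrays and to -0.046 without high-calcium replicate 1.

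Probe sets of 1 gene did not always give the same answer. The 40 genes had 69 probe sets, and 19 genes had more than 1. In 11 genes more than 1 probe set was above background on every array, and in 5 of these, Aplnr, Egfl7, Eng, Ptprb and Sox17, the probe sets gave differences of the same sign. For Egfl7 the differences of all 4 probe sets lay between -0.58 and -0.24, whereas the second probe set of Aplnr had -0.24 against -0.82 for the first. In the other 6 genes, Dll4, Efnb2, Flt1, Lyve1, Mmrn2 and Rgcc, signs were mixed. Mmrn2 ranged from -0.60 to 0.70 over 4 probe sets and Flt1 from -0.34 to 0.27. For Rgcc the second probe set had 2.83, 2.92, 2.68 and 2.88, with the standard array the lowest of the 4. Erg had a second probe set under background on every array, and averaging both turned its difference to 0.060. Sox18, Tie1, Emcn, Robo4 and Plvap had 1 probe set each, so no second probe set bears on their values.

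Ligands and partners of these receptors lay on both sides of the standard array on the high-calcium arrays. Of 29 measured genes of VEGF, angiopoietin, apelin and Notch signalling, 11 were lower on both high-calcium arrays and 7 higher on both, and 0 were called by limma after adjustment. Over the 25 above background the median log2 difference was -0.025 on replicate 1 and -0.020 on replicate 2. On the array of unassigned diet 26 of the 29 were lower than on the standard array, and the median over the same 25 was -0.27. Angpt1, the mural-cell ligand of Tek, had -2.28, -3.09, -1.66 and -2.59 on replicates 1 and 2, the standard array and the array of unassigned diet, and Cxcl12, a chemokine for vessel growth, had 1.59, 1.65, 1.90 and 1.63. The standard array was the highest for both. Apln, the ligand of Aplnr, was higher on both high-calcium arrays, by 0.37 and 0.25, and Hes1, a Notch target, by 1.76 and 0.83. Vegfa, the principal angiogenic factor, differed by 0.34 and -0.033.

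Further endothelial genes outside the 40 were more often below the standard array than above it. Among 29 measured, 16 lay below the standard array on both high-calcium arrays and 4 above it. For the 26 above background the median was -0.043 with replicate 1, -0.25 with replicate 2 and -0.33 with the unassigned array. Aqp1, the water channel of capillary endothelium, had 1.26, 0.85, 1.89 and 0.96 in the same array order, with the standard array above the rest. Elk3, an ETS factor, differed by -0.62 and -0.45, Myct1, an endothelial membrane protein, by -0.63 and -0.39, and Vcam1, an adhesion molecule, by -0.69 and -0.29. Gpihbp1, which anchors lipoprotein lipase on capillaries, was close to the standard array at -0.043 and -0.22.

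Genes of other cells also set the arrays apart. Mesothelial genes were higher on both high-calcium arrays for 8 of 12 measured genes, against 38.6% of all genes. For the 10 above background the median was 1.12 with replicate 1, 0.50 with replicate 2 and 0.77 with the unassigned array. Of the rest, Krt19, Krt8 and Cdh1 were higher on replicate 1 and lower on replicate 2, and Krt7 was lower on both. The summed signal of all 12 genes was 9.15 and 3.40 on the high-calcium arrays, 3.99 on the standard array and 3.97 on the array of unassigned diet. On replicate 1 that sum includes Krt19 at a log2 signal of 1.35 and Krt8 at 0.80, against -1.89 and -2.20 on replicate 2. For Upk3b, a uroplakin of mesothelium, the standard array was the lowest, at -1.20 against 0.11, -0.34 and -0.24. Mural genes, which mark pericytes and smooth muscle, summed to 50.7 and 13.9 on the high-calcium arrays against 16.2 and 12.1, so that replicate 1 stood apart. The mural list had no common direction. Of its 12 measured members, 3 fell under the standard array with each replicate, 3 rose over it with each, and 6 were split. The pericyte gene Rgs5 had 1.91, 1.53, 2.03 and 1.42, with the standard array the highest. Higd1b, of the same list, went the other way, at 0.36 above the standard array on replicate 1 and 0.064 on replicate 2. Macrophage genes summed to 28.5 on replicate 1 and to 52.3, 52.1 and 54.7 on replicate 2, the standard array and the array of unassigned diet.

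**Figure D4:**
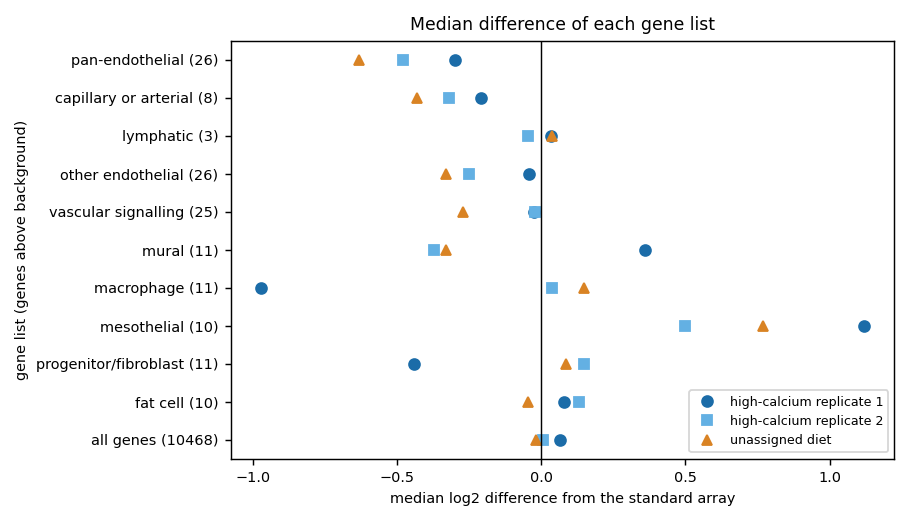
Median log2 difference from the standard array for each gene list, over its genes above background on every array (number in brackets), on the 2 high-calcium arrays and the array of unassigned diet. Pan-endothelial and capillary or arterial medians are below 0 on all 3 arrays, mesothelial medians are above 0 on all 3, and macrophage medians are -0.97 on replicate 1, 0.036 on replicate 2 and 0.15 on the array of unassigned diet.

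Fibroblast and progenitor genes summed to 48.9 on replicate 1 and to 61.5 to 62.8 on the other arrays, and fat-cell genes to 161, 150, 145 and 138 on the 4 arrays in the same order. Genes of blood cells and platelets summed to 5.07, 6.93, 6.62 and 5.58, with 4 of 7 measured genes above background on every array. Genes of testis and epididymis summed to 12.1 and 0.458 on the high-calcium arrays, 2.13 on the standard array and 0.318 on the array of unassigned diet, and 1 of 10 measured, Prm1, was above background on every array. The part of these other cells in the endothelial differences was not tested.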

How the data were processed

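Gene expression was measured on 4 Affymetrix arrays. Intensity values were deposited by the authors as 1 linear signal per probe set; the submitters' processing notes list RMA without a version, and the scaling step is not given in the sources at hand. The lowest intensity of each array deposited is its median divided by 100.0, so the scale of each array is the authors' own and unknown. Values were log2 transformed with no added constant and no further normalization.

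Of 45101 probe sets 34958 had 1 gene symbol in the platform annotation, 932 had several and 9211 had none, and only the first were used. All 40 endothelial symbols matched a current RefSeq gene record. Differences between 2 high-calcium arrays and 1 standard array were fitted over 18194 genes with lmFit and eBayes of limma 3.58.1 (R 4.3.3). Tests were two-sided and Benjamini-Hochberg adjusted at 0.05. There was 1 residual degree of freedom, or 2.38 after moderation, and the lone standard array was assumed to vary like the others. The array of unassigned diet entered no fit.

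The procedure was tested on simulated data with 200 of 18194 genes shifted: at the observed spread 0% of shifts of 1 or 2 log2 units were called, and at an SD of 0.1 100% were. The number of arrays limits the precision. Members, vessel groups and gene lists were chosen with earlier results of these data known. Endothelial genes given with values on every array were the 8 pan-endothelial and 5 capillary or arterial genes above background with the largest smaller-of-2 difference on the same side, those higher on both, and the 5 lymphatic genes; of the signalling and further endothelial lists 4 each by the same measure are named, with values or differences, and of the other lists Upk3b and Rgs5. Vegfa, Gpihbp1, Adipoq, Prm1 and Higd1b were named by choice, and Krt19, Krt8, Krt7 and Cdh1 as the mesothelial genes not higher on both high-calcium arrays. The other endothelial genes are given by their differences, except Gja5, which was under background on every array and is given by its values. Among list genes not matched in the annotation used here were Ccl21a, Tspan7, Ly6a, Plin1, Cfd, Hbb-b1, Gp1ba, Crisp1 and Spink11. Figures used matplotlib 3.10.9 under Python 3.11.15.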

Additional observations from a re-analysis of the deposited data

Results flagged for a closer look

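The array of unassigned diet entered no comparison, and 4 endothelial genes above background on every array had a higher signal there than on the standard array, against the general direction. These were Kdr, higher by 0.34 log2 units, Rgcc, higher by 0.20, Lyve1, higher by 0.11, and Pdpn, higher by 0.039. For Rgcc a second probe set was likewise higher there, at 2.88 against 2.68, and for Lyve1 a second probe set was lower, at -1.56 against -0.98.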

How the results depend on the processing

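The direction of the 40-gene median was negative under every setting run, from -0.20 with the probe sets of each gene averaged to -0.63 with arrays centred on their medians. Relative to the median of all genes it ranged from -0.35 to -0.43. Centring on the array medians moved the pan-endothelial median to -0.69, the capillary or arterial median to -0.54 and the lymphatic median to -0.20 (it was -0.011 with the probe set chosen over the 3 labelled arrays), raised the genes at least 0.32 log2 units lower on both arrays from 10 to 23, and raised the genes called over the whole table from 0 to 96, with 0 endothelial genes among them. The capillary or arterial median was -0.054 with averaged probe sets, -0.12 with probe sets left out that can share transcripts, whether of other genes (IDs ending in _s_at or _x_at) or of the same gene (_a_at), which kept 34 of the 40 genes, and -0.30 after quantile normalization. That count was 24 without high-calcium replicate 1 and 14 without replicate 2, where 1 array decides, and 4 at a mark of 1.5-fold. limma with trend and robust estimation called 6 genes, 0 of them endothelial, and a threshold of 0.1 called 0. The genes lower on both arrays, 29 as reported, numbered 20 with averaged probe sets and 34 with centring; 37 were lower on replicate 2 alone and 29 on replicate 1 alone.

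Among the 19 endothelial genes selected to be given with values on every array, 9 kept their direction under every setting. These include Efnb2 and Mmrn2, which were near 0 with averaged probe sets. Efnb2 went from -0.59 to -0.028 and Mmrn2 from -0.60 to -0.081. A further 4, Emcn, Egfl7, Sox17 and Prox1, kept it wherever they were measured, the first 3 having no value without probe sets that can share transcripts and Prox1 none among genes above background. Prox1 and Mmrn1 were under background on every array, so their signs are no measured direction. Erg turned to 0.060 and Mmrn1 to 0.80 with averaged probe sets, Rgcc to 0.20 with those probe sets left out, and Mmrn1 ranged from -0.82 without replicate 1 to 0.69 without replicate 2. Lyve1 turned to -0.011 with the probe set chosen over the 3 labelled arrays, to -0.20 with centring, and ranged from -0.046 without replicate 1 to 0.28 without replicate 2. Kdr and Pdpn each turned to -0.15 with centring. Apart from probe sets averaged and arrays left out, the cause was not tested. Centring each array on its genes above background was added after the data had been seen and reversed none of the 19. No paired analysis was possible because the standard diet has 1 array.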
